A study of Mus musculus with 8 samples.

Results

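The ATP-binding cassette (ABC) transporter genes were described in cells sorted from medulloblastomas. The set held all genes with a symbol of the form Abca to Abcg followed by a number. Members were taken by name, but the set was chosen with earlier results of these data known. There were 48 members among the 22180 genes measured, each with 1 probe set. Medulloblastoma is a tumour of the cerebellum, and the mice were heterozygous for Patched1, which encodes the receptor that restrains Hedgehog signalling. They came from Patched1+/- CD1 and Sox2eGFP B6 parents, all were given 3 Gy of ionizing radiation at birth, and tumours were taken after 70 days of age, once signs of disease appeared. White blood cells (CD45) and red blood cells (Ter119) were removed, and the rest was sorted into Sox2-eGFP+ and Sox2-eGFP- cells, called Sox2-positive and Sox2-negative here. Each fraction had 4 arrays, and each array held RNA of a pool of 3 tumours, so the spread is that between pools and not between single animals. The comparison asks how the cells that express the stem cell factor Sox2 differ from the other sorted cells in their transporters. The sort did not separate tumour cells from other cells of the tissue.

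ABC transporters use ATP to move a cargo across a membrane. The A and G families mainly carry sterols and phospholipids, most of the D family brings fatty acids into peroxisomes, and several B, C and G members pump drugs and conjugated metabolites out of cells. In the brain, drug pumps are best known from the endothelial cells of the blood-brain barrier, while glia use Abca1 and Abcg1 to hand cholesterol to lipoproteins that carry apolipoprotein E. Some C members regulate potassium channels, and the E and F proteins carry nothing and act on ribosomes.

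Values are log2 signals in which 1 unit is a 2-fold difference, and differences are Sox2-positive minus Sox2-negative. Genes were tested with limma, and a gene passed at a Benjamini-Hochberg adjusted p under 0.05 over all 22180 genes. Array medians over all genes lay between 5.83 and 5.88. Sox2 itself was at 5.67 to 6.36 in the Sox2-positive and at 4.04 to 4.60 in the Sox2-negative arrays. Markers of the granule neuron lineage, from which these tumours arise, averaged 7.37 to 7.67 in the Sox2-positive and 8.31 to 8.57 in the Sox2-negative arrays. As a guide to dim probe sets, the upper quartile of 1394 olfactory and vomeronasal receptor genes was 5.80. Of the 48 ABC genes, 19 lay below it in both groups (39.6%, against 45.4% of all genes), 5 in 1 group and 24 in neither. A difference against a dim level is likely to be understated.

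Of the 48 ABC genes, 5 were higher in Sox2-positive cells (10.4%), against 5.96% of all genes, and 2 were lower (4.17%), against 2.52% of all genes. Together 7 of 48 passed (14.6%), against 8.47% of all genes. The higher genes were Abcg1, Abca1, Abcg4 and Abca3, which carry lipids, and the drug pump gene Abcc4. The lower genes were Abcd2, a peroxisomal fatty acid transporter, and Abcc8, a regulator of potassium channels. The 4 values of one group all lay on one side of the other group's for 9 members (18.8%), against 13.7% of all genes: the Sox2-positive arrays lay above for 6 (7.63% of all genes) and the Sox2-negative arrays for 3 (6.07%). At an unadjusted p under 0.05 there were 10 members, against 20.1% of all genes. The median difference over the 48 genes was -0.05, and over all genes -0.03. In these sorted bulk samples, fewer cells of a type and less RNA per cell cannot be told apart.

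By role, 4 of 16 lipid transport genes were higher and 1 was lower, and 1 of 9 drug efflux genes was higher and 0 were lower. The median difference was 0.11 over the lipid transport and 0.02 over the drug efflux genes. Lipid transport genes spanned -0.84 to 1.11, and drug efflux genes -0.26 to 0.31. Below the guide in both groups lay 5 of 9 drug efflux genes (55.6%) and 6 of 16 lipid transport genes (37.5%), beside 45.4% of all genes. A difference between these lists was not tested, since the lists were drawn up with earlier results of these data known.

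**Figure D1:**
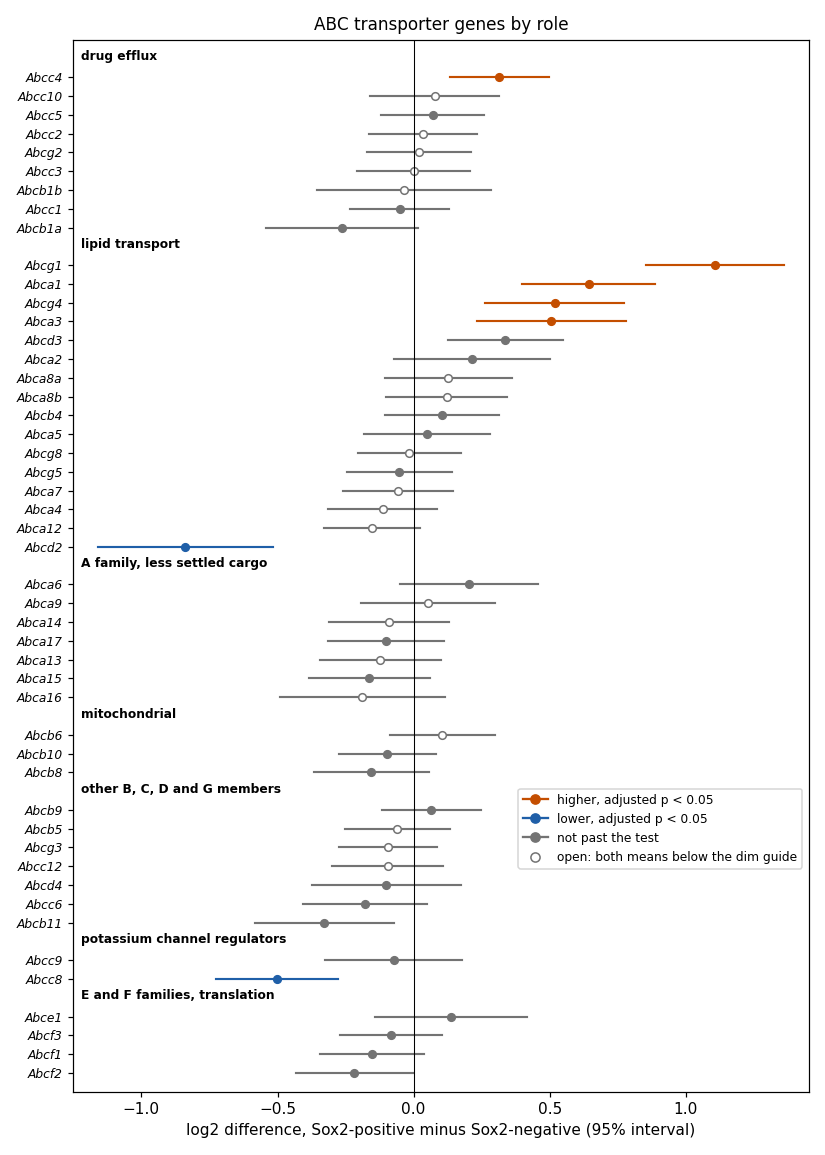
Log2 difference (Sox2-positive minus Sox2-negative, points) with its 95% interval (lines) for each of the 48 ABC genes, grouped by role. Orange and blue mark the 5 higher and 2 lower genes, grey those not past the test, and open points the 19 genes whose means were below the dim guide in both groups. The intervals of Abcg1 and Abcd2 lie farthest from 0 on either side.

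Promoter sequences are shown for the genes that passed the test and have a RefSeq window (GRCm38.p6), which were Abca1, Abca3 and Abcc4. A window of 300 bases around the annotated start was matched by symbol for 38 of the 48 genes, and Abcg1, Abcg4, Abcd2 and Abcc8 are not among them. The windows were searched on both strands for 3 motifs, shown in capitals. These were a loosened direct repeat of the kind bound by liver X receptors, the sterol sensors known to drive Abca1 (GGTNA and GGTCA with 5 bases of any kind between them, where N is any base), the E-box CACGTG and the GC box GGGCGG. Abca1 lies at chr4:53159846-53160145 on the minus strand, Abca3 at chr17:24351773-24352072 on the plus strand, and Abcc4, the first listed of its 2 windows, at chr14:118706170-118706469 on the minus strand. Each sequence runs 5′ to 3′ along its gene.
Abca1 promoter: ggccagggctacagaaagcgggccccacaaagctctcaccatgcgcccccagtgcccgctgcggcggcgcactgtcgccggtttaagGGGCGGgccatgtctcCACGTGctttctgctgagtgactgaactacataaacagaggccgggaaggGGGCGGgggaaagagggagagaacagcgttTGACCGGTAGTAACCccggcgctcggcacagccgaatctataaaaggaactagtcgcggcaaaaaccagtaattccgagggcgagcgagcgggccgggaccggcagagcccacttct
Abca3 promoter: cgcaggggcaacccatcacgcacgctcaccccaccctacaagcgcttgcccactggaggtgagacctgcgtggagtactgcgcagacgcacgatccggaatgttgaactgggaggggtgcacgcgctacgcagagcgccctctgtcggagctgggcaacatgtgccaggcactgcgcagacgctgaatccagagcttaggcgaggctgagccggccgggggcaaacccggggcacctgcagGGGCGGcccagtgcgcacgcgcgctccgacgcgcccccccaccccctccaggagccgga
Abcc4 promoter: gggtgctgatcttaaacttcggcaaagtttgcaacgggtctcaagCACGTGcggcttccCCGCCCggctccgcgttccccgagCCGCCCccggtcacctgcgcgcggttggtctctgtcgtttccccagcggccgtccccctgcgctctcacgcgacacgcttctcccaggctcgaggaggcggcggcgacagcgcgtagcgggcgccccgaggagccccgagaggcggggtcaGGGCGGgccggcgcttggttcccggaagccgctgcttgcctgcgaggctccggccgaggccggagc

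The direct repeat began 67 bases before the start of Abca1, where it was read on the opposite strand, and it was in no other window of an ABC gene. It was in 0.207% of all 32851 windows. The loosened base N is the one at which the Abca1 letters depart from GGTCA. The match there follows from how the pattern was written, and the share is description only. The E-box was in the windows of Abca1 and Abcc4, and in 13.3% of the 45 windows of ABC genes against 7.15% of all. All 3 printed windows held a GC box, as did 46.7% of ABC windows and 35.7% of all. The motifs did not overlap each other in these sequences. A match describes letters in a window and not a bound site.

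Abcg1, which moves cholesterol and other sterols out of cells towards lipoproteins, had the largest difference of the 48 genes. Its values were 7.26, 7.58, 7.71 and 7.28 in Sox2-positive pools 1 to 4, and 6.18, 6.32, 6.52 and 6.40 in Sox2-negative pools 1 to 4. The groups were separated by a wide gap. The gene was 2.15-fold higher (log2 difference 1.11, SE 0.12, limma adjusted p = 3.59e-05).

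Abca1, which loads cholesterol and phospholipid onto apolipoproteins, was at 7.76, 7.86, 7.98 and 7.71 in Sox2-positive and at 7.29, 7.44, 7.02 and 6.99 in Sox2-negative pools 1 to 4. All Sox2-positive pools lay above all Sox2-negative ones, with pool 3 highest in the positive and pool 2 in the negative fraction. The gene was 1.56-fold higher (log2 difference 0.64, SE 0.11, limma adjusted p = 0.00237). Between pools of the same number the difference ran from 0.42 to 0.96.

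Abcg4, a brain-expressed relative of Abcg1 that also exports sterols, was at 7.00, 7.28, 7.17 and 6.92 in Sox2-positive and at 6.60, 6.66, 6.76 and 6.28 in Sox2-negative pools 1 to 4. The groups did not overlap, but the lowest positive and the highest negative pool were close. The gene was 1.43-fold higher (log2 difference 0.52, SE 0.12, limma adjusted p = 0.0136). Without Sox2-positive pool 2 its adjusted p was 0.0524.

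Abca3, known for packing phospholipid into the surfactant bodies of the lung, was at 6.51, 7.14, 6.71 and 6.97 in Sox2-positive and at 6.38, 6.20, 6.43 and 6.29 in Sox2-negative pools 1 to 4. The positive pools were widely spread, the widest SD of the 48 genes in that fraction (0.28), and pool 1 was near the negative values. Pools 2 and 4 were also the highest for 2 mature oligodendrocyte markers, chosen after their values were seen. Cldn11 was at 7.44, 9.71, 7.82 and 9.06, and Mag, which did not pass the test, at 4.87, 7.10, 5.23 and 5.68 in Sox2-positive pools 1 to 4. Positive pool 2 stood highest for both, as it did for Abca3. Of the other mature oligodendrocyte markers, Mbp, Mog, Mobp and Cnp also had positive pools 2 and 4 highest. Ugt8a and Aspa instead had pool 3 above pool 4. Ugt8a was at 8.24, 9.16, 8.66 and 8.47, and Aspa, which was dim, at 4.88, 5.05, 5.05 and 4.53 in Sox2-positive pools 1 to 4. The part of these cells in the Abca3 values was not tested. The gene was 1.42-fold higher (log2 difference 0.51, SE 0.13, limma adjusted p = 0.0229). Leaving out positive pool 2 or 4, or negative pool 1, 2 or 4, ended the call (adjusted p = 0.0511 to 0.0740). Its neighbour Abca17, the next protein-coding gene in the RefSeq order, had a difference of -0.10 and did not pass.

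Of the peroxisomal members, Abcd2 was lower in Sox2-positive cells. Abcd2, which imports very long chain fatty acids, was at 6.20, 6.34, 6.80 and 6.47 in Sox2-positive and at 7.36, 7.65, 7.10 and 7.06 in Sox2-negative pools 1 to 4. All positive pools lay below all negative ones, and pool 3 was the nearest pair. Abcd2 fell by 0.84 on the log2 scale (SE 0.15, limma adjusted p = 0.00236), which left 0.559 of its Sox2-negative level. Between pools of the same number the difference ran from -1.31 to -0.30.

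Abcd3, which imports branched-chain fatty acids and bile acid precursors, was at 7.16, 7.21, 7.36 and 7.18 in Sox2-positive and at 6.77, 7.09, 6.93 and 6.76 in Sox2-negative pools 1 to 4. The groups did not overlap. The log2 difference was 0.34 (SE 0.10) and narrowly missed the threshold (limma adjusted p = 0.05002). With the pool number as a block it passed (0.0383), and it passed in 6 of 15 alternatives in all (0.0174 to 0.0492).

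The other lipid transport genes did not pass. Abca2, an endosomal and lysosomal protein abundant in oligodendrocytes, was at 6.97 to 7.41 in Sox2-positive and at 6.66 to 7.28 in Sox2-negative cells, with overlapping groups (difference 0.21, 95% interval -0.07 to 0.50). The phosphatidylcholine transporter Abcb4 (0.10), the lysosomal Abca5 (0.05) and Abcg5 (-0.05), which exports sterols with Abcg8, were above the dim guide and differed little. Abca8a, Abca8b, Abca7, Abca4, Abca12 and Abcg8 lay below the guide in both groups, with differences of -0.15 to 0.13. Abca12, a lipid transporter of skin, had groups that did not overlap, lower in Sox2-positive cells, at a difference of -0.15 (limma adjusted p = 0.327).

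**Figure D2:**
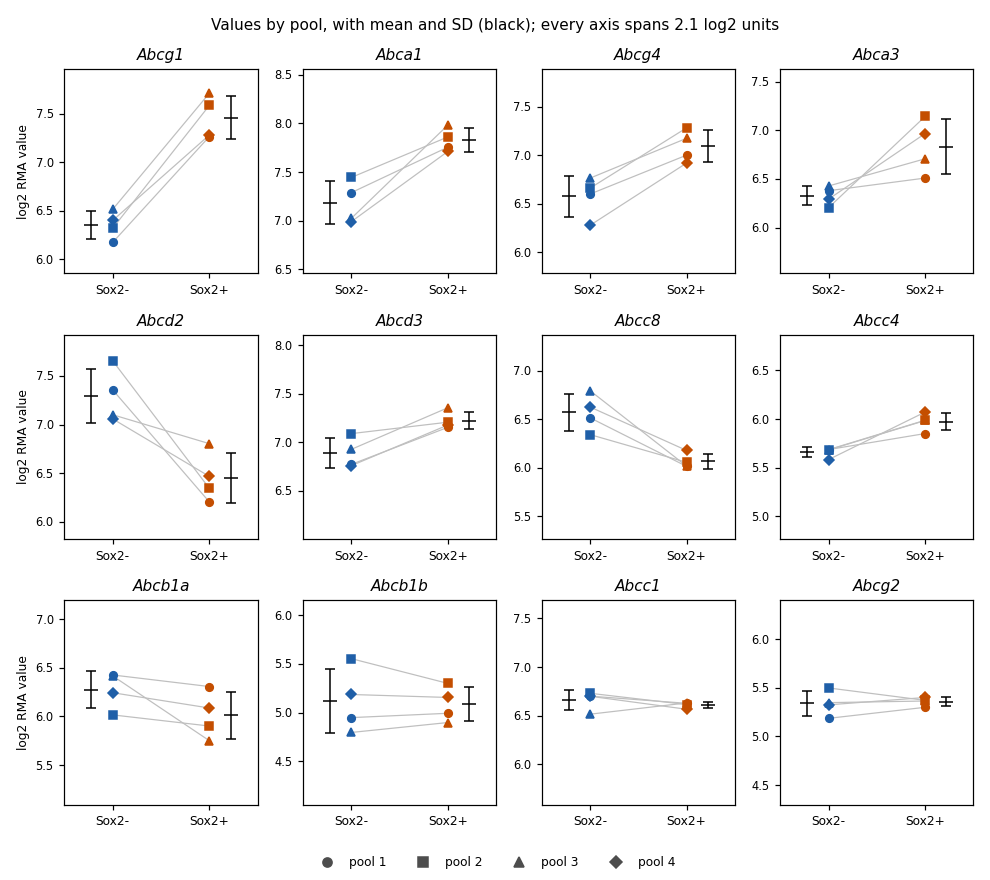
Log2 values of 12 ABC genes in the Sox2-negative (blue) and Sox2-positive (orange) arrays, with marker shapes for pools 1 to 4, grey lines between pools of the same number, and the mean and SD of 4 arrays in black. Each vertical axis spans the same 2.1 log2 units. Abcg1, Abca1, Abcg4, Abca3, Abcd3 and Abcc4 are higher and Abcd2 and Abcc8 lower in every Sox2-positive pool, while Abcb1b, Abcc1 and Abcg2 overlap.

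Among the drug efflux genes, Abcc4 was higher in Sox2-positive cells. Abcc4 exports cyclic nucleotides, prostaglandins and nucleoside drugs. It was at 5.85, 5.99, 5.99 and 6.07 in Sox2-positive and at 5.69, 5.68, 5.69 and 5.58 in Sox2-negative pools 1 to 4. The groups did not overlap, and the negative mean lay below the dim guide. The gene was 1.24-fold higher (log2 difference 0.31, SE 0.08, limma adjusted p = 0.0341). That call was the least firm of the 7: removing positive pool 2, 3 or 4, or negative pool 1, 3 or 4, ended it (adjusted p = 0.0578 to 0.106).

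The best known multidrug pumps did not pass. Abcb1a, the P-glycoprotein gene of the mouse blood-brain barrier, was at 6.31, 5.90, 5.75 and 6.09 in Sox2-positive and at 6.43, 6.02, 6.42 and 6.24 in Sox2-negative pools 1 to 4. Each positive pool lay below the negative pool of its number, but the groups overlapped (difference -0.26, 95% interval -0.54 to 0.01, limma adjusted p = 0.279). Abcb1b, the other P-glycoprotein gene and the neighbour of Abcb1a, was at 4.99, 5.30, 4.90 and 5.15 in Sox2-positive and at 4.95, 5.55, 4.79 and 5.19 in Sox2-negative pools 1 to 4. All its values lay below the dim guide, where a difference is likely to be understated. The pools stood in the same order in both fractions, with pool 2 highest and pool 3 lowest. The fractions did not separate (difference -0.03, 95% interval -0.35 to 0.28). These genes are near copies, as are Abca8a and Abca8b, and how far their probe sets share signal was not analysed here.

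Abcg2, a pump long used to mark side population cells, was at 5.30, 5.37, 5.36 and 5.40 in Sox2-positive and at 5.19, 5.50, 5.35 and 5.32 in Sox2-negative pools 1 to 4. All values lay below the dim guide and overlapped, and the difference was 0.02 (95% interval -0.17 to 0.21, limma adjusted p = 0.939). Abcc1, which exports glutathione conjugates, was at 6.63, 6.61, 6.63 and 6.57 in Sox2-positive and at 6.70, 6.73, 6.51 and 6.70 in Sox2-negative pools 1 to 4. It was above the guide in every array and differed little (difference -0.05, 95% interval -0.23 to 0.13, limma adjusted p = 0.803). Abcc5, Abcc10, Abcc2 and Abcc3 had differences of 0.0007 to 0.08, and all of these except Abcc5 were dim. Over the 8 drug efflux genes that did not pass, the lowest and highest limits of the 95% intervals were -0.54 and 0.31.

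Abcc8, the sulfonylurea receptor subunit of ATP-sensitive potassium channels in beta cells and neurons, was at 6.01, 6.06, 6.02 and 6.18 in Sox2-positive and at 6.51, 6.34, 6.79 and 6.63 in Sox2-negative pools 1 to 4. The groups did not overlap, and the positive pools lay close together. Abcc8 fell by 0.50 on the log2 scale (SE 0.10, limma adjusted p = 0.00699). Abcc9, the related subunit of vascular and heart muscle channels, overlapped between the groups (difference -0.07, 95% interval -0.32 to 0.18). Of the channel pores these subunits join, Kcnj11 had a difference of -0.06 and Kcnj8 of -0.32, and 0 of 2 passed in limma (1 at an unadjusted p under 0.05). With the pool number as a block Kcnj8 passed (adjusted p = 0.0403).

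None of the 7 less settled A family members passed in limma, and 0 had an unadjusted p under 0.05. The largest difference was that of Abca6, at 5.99, 5.99, 5.94 and 5.53 in Sox2-positive and at 5.88, 5.56, 5.60 and 5.59 in Sox2-negative pools 1 to 4. Its groups overlapped through positive pool 4 and negative pool 1 (difference 0.20, 95% interval -0.05 to 0.46). Abca6 lies in a run of neighbours with Abca8b, Abca8a, Abca9 and Abca5, whose differences were 0.12, 0.13, 0.05 and 0.05. The testis-known neighbours Abca14, Abca15 and Abca16 had differences of -0.09, -0.16 and -0.19, and Abca13 of -0.12.

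Of 3 mitochondrial members measured, 0 passed in limma and 0 had an unadjusted p under 0.05. Abcb8, of the inner membrane, was at 6.09, 5.83, 5.85 and 5.79 in Sox2-positive and at 6.18, 6.10, 5.91 and 5.98 in Sox2-negative pools 1 to 4. The groups overlapped (difference -0.16, 95% interval -0.37 to 0.06). Abcb10, needed for haem synthesis in red cell precursors, had a difference of -0.10, and Abcb6 of 0.10.

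Of the 7 other B, C, D and G members, 0 passed in limma and 1 had an unadjusted p under 0.05. This was Abcb11, the bile salt export pump of liver, at 5.62, 5.42, 5.35 and 5.55 in Sox2-positive and at 5.85, 5.99, 5.47 and 5.94 in Sox2-negative pools 1 to 4. Negative pool 3 lay within the positive range (difference -0.33, limma adjusted p = 0.121), and without it the adjusted p was 0.0170. The differences of Abcb9, Abcb5, Abcg3, Abcc12, Abcd4 and Abcc6 ran from -0.18 to 0.06.

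Of the 4 E and F genes, which act in translation, 0 passed in limma and 1 had an unadjusted p under 0.05. This was Abcf2, at 7.19, 7.21, 7.22 and 7.26 in Sox2-positive and at 7.39, 7.62, 7.20 and 7.55 in Sox2-negative pools 1 to 4. Negative pool 3 again fell among the positive pools (difference -0.22, limma adjusted p = 0.236). Abce1, which splits ribosomes after translation ends, had a difference of 0.14, Abcf3 of -0.08 and Abcf1 of -0.15.

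Genes that work with the transporters were also counted, beside 5.96% of all genes higher and 2.52% lower. At an unadjusted p under 0.05 the share of all genes was 20.1%. Of 15 sterol efflux regulators and partners, 5 were higher and 1 was lower, with a median difference of 0.14. Lrp1, a receptor for apolipoprotein E particles, was 5.25-fold higher, at 9.45, 9.66, 9.56 and 9.48 against 7.25, 7.02, 7.10 and 7.22 in pools 1 to 4 (limma adjusted p = 3.37e-09). Lcat, which esterifies cholesterol on lipoproteins, was 3.60-fold higher (limma adjusted p = 5.98e-05). Npc1, which releases cholesterol from lysosomes, was 3.19-fold higher (limma adjusted p = 1.80e-05), and Apoe and Scarb1 were the other higher genes. The lower gene was Srebf1, a lipid synthesis regulator named here after its value was seen (difference -0.41, limma adjusted p = 0.0470). It lost the call in 10 of 15 alternatives (0.0511 to 0.135), and of the 8 fits without 1 array it kept the call when negative pool 3 was removed. The liver X receptor gene Nr1h3 was dim in both groups and did not pass (difference -0.08). Nr1h2, the other liver X receptor gene, was on the list but is not among the 15 with values.

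Of 16 drug response regulators and conjugation enzymes, 2 were higher and 0 lower, with a median difference of 0.03. Gstp1, a glutathione transferase, was 1.39-fold higher, at 8.77, 8.60, 9.04 and 8.72 against 8.31, 8.21, 8.34 and 8.37 in pools 1 to 4 (limma adjusted p = 0.00913). Hmox1, which breaks down haem, was 1.37-fold higher but dim in both groups (limma adjusted p = 0.0482), and it lost the call in 8 of 14 alternatives (0.0528 to 0.137), including the removal of pool 2, 3 or 4 from either fraction. The xenobiotic receptor genes Nr1i2, Nr1i3 and Ahr had differences of -0.001 to 0.01, and Nfe2l2, the oxidative stress regulator, of -0.10. Nr1i2 and Nr1i3 were dim in both groups, and Ahr was above the guide.

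Around Abcd2 and Abcd3, 0 of 15 genes of peroxisome import and beta oxidation passed in limma and 0 had an unadjusted p under 0.05. Their median difference was 0.06, and the largest was that of the oxidation enzyme Hsd17b4 (0.19). Of 13 mitochondrial haem and iron-sulfur genes, 1 was higher and 0 lower (median 0.04). This was Alad, an enzyme of haem synthesis, which was 1.43-fold higher (limma adjusted p = 0.0120). Of 7 genes of ribosome recycling and its stress pathway, 0 passed in limma and 0 had an unadjusted p under 0.05, and the largest difference was that of the termination factor Gspt1 (0.20). ABC genes with other symbols, Tap1, Tap2 and Cftr, had differences of 0.15, 0.19 and -0.35, and 0 of 3 passed in limma (1 at an unadjusted p under 0.05).

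**Figure D3:**
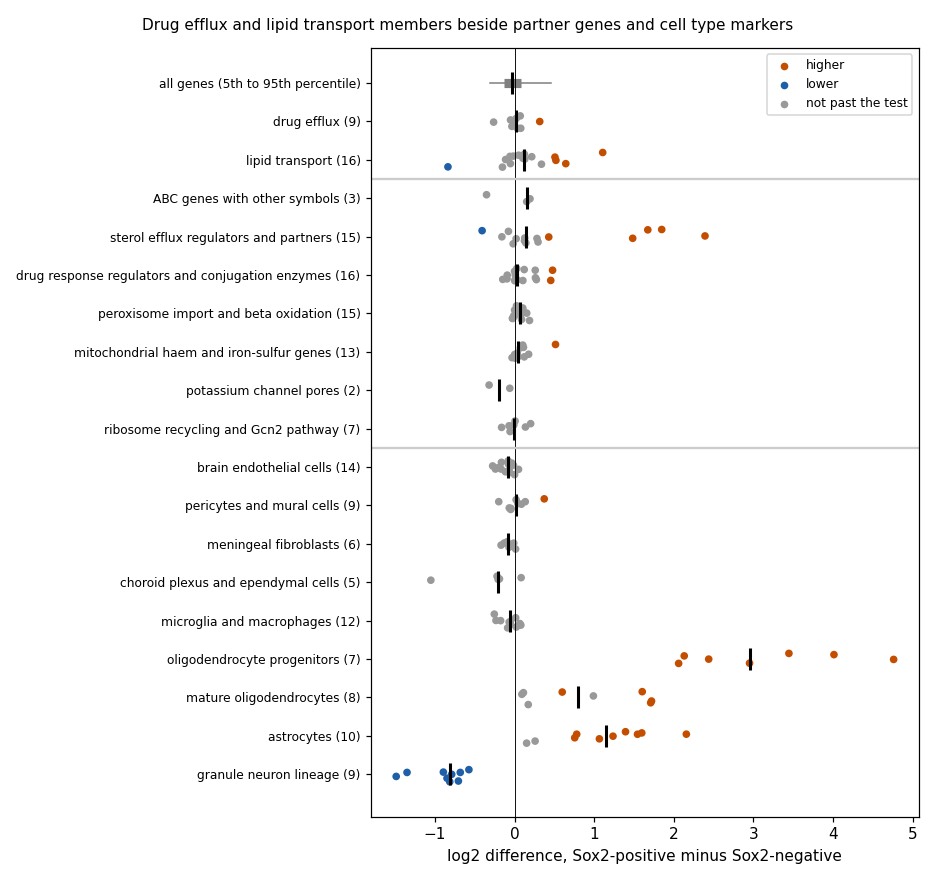
Log2 difference (Sox2-positive minus Sox2-negative) of each drug efflux and lipid transport gene, partner gene and cell type marker (points, with the number of genes in brackets), with list medians as black ticks. The top row gives all genes, with the thick bar from the 25th to the 75th and the thin line from the 5th to the 95th percentile (-0.31 to 0.46). Of the drug efflux and lipid transport genes, Abcg1 (1.11), Abca1 (0.64), Abcg4 (0.52), Abca3 (0.51) and Abcd2 (-0.84) lie outside that range. The markers of oligodendrocyte progenitors and of the granule neuron lineage lie to either side.

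Markers of several cell types also differed between the fractions, where 5.96% of all genes were higher and 2.52% lower. All 7 oligodendrocyte progenitor markers were higher, at a mean log2 value of 9.09 to 9.65 in Sox2-positive and 6.23 to 6.33 in Sox2-negative arrays. Of 10 astrocyte markers, 8 were higher and 0 lower (7.06 to 7.82 against 6.24 to 6.37), and of 8 mature oligodendrocyte markers 4 were higher and 0 lower (6.28 to 7.39 against 5.80 to 5.95). All 9 granule neuron lineage markers were lower. The lowest value of any probe set on these arrays was 2.51, so a value above 0 does not show that a marker was expressed. Some markers, among them Olig1, Sox10, Cnp and S100b, had Sox2-negative means below the dim guide. Markers in these 4 lists differed between the fractions, as did the ABC genes that passed, and no relation between them across arrays was computed. The part of these cells in the differences of Abcg1, Abca1, Abcg4, Abca3, Abcc4, Abcd2 and Abcc8 was not tested.

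Blood vessel markers bear on Abcb1a, Abcg2 and Abcc4, which brain endothelial cells use. For the counts that follow, 8.47% of all genes passed and 20.1% had an unadjusted p under 0.05. Of 14 endothelial markers 0 passed in limma (1 at an unadjusted p under 0.05) and 10 were dim in both groups, with mean log2 values of 5.28 to 5.38 in Sox2-positive and 5.33 to 5.50 in Sox2-negative arrays. Cldn5, which seals the blood-brain barrier, was at 5.18 ± 0.11 against 5.35 ± 0.20 (SD, n = 4 each), below the dim guide. Of 9 pericyte and mural cell markers, 1 was higher, Rgs5, named after its value was seen (difference 0.37), and 6 were dim in both groups (5.50 to 5.59 against 5.44 to 5.58). It did not pass when its probe sets were averaged or when positive pool 4 was removed (limma adjusted p = 0.0571 to 0.252). Of 12 markers of microglia and macrophages, which also use Abca1 and Abcg1, 0 passed in limma (2 at an unadjusted p under 0.05) and 7 were dim in both groups (5.54 to 5.66 against 5.51 to 5.73). Of 6 meningeal fibroblast markers 0 passed in limma (0 at an unadjusted p under 0.05; 5.53 to 5.68 against 5.64 to 5.72). Of 5 markers of choroid plexus and ependymal cells 0 passed in limma (1 at an unadjusted p under 0.05), with mean values of 6.15 to 6.29 against 6.32 to 6.67. The part of these cells in the ABC gene values was not tested.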

How the data were processed

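The deposited values are log2 signals per probe set, which the authors made with RMA (background correction, a common distribution for all arrays, one summary per probe set) in Affymetrix Expression Console 1.2.0.20, per the submitters' processing notes. The genome build is not given in the sources used here. RMA compresses differences of dim genes and removes differences in total RNA per cell. Values of 2.51 to 13.6 fit a log2 scale. Of 41345 probe sets, 23521 had 1 gene symbol in the platform annotation. The probe set with the highest mean over 8 arrays was taken for each of 22180 genes, with no filter on dim genes. All 48 ABC genes matched RefSeq symbols.

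Fraction was the only term of a linear model (lmFit and eBayes of limma 3.58.1, R 4.3.3), two-sided, with Benjamini-Hochberg adjustment over all genes. The procedure was tested on simulated data. The number of arrays limits the precision. Intervals are 95%.

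Both fractions carry replicate numbers 1 to 4. For arrays sharing a number, deviations from the group means had correlations of 0.164, 0.114, 0.177 and 0.241, each above 0.1, which met the rule for pairs. Arrays of different numbers ran from -0.284 to 0.161. Positive pool 3 with negative pool 2 (0.161) and positive pool 1 with negative pool 4 (0.137) were also above 0.1. Both were above the 0.114 of pool 2, so the values separate shared from different numbers only in part. No label states a shared tumour, so the pairing rests on the values. The reported estimates, errors and p-values are unpaired, and the fit with the replicate block is an alternative, given where it changes a call.

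The members, role lists, partner lists and marker lists were chosen with earlier results of these data known. Values in every array are given for each ABC gene past the test, for Abcb1a, Abcb1b, Abcc1, Abcg2, Abca1 and Abcg1, and for the gene with the largest difference in each role; Abcd3 was added after its value was seen. From each partner list the 3 largest past the test were named, or the largest where none passed; other genes were named by their role. Members not past the test that are given only by their difference were chosen to account for all 48.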

Additional observations from a re-analysis of the deposited data

Results flagged for a closer look

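Within the groups of 4 arrays, 30 groups of 15 ABC genes (those given in every array, except Abcd3) were screened for a single array set apart from the others by most of the group's range, and 4 were found, where chance alone gives about 5%. Abcc4 was at 5.58 in Sox2-negative pool 4 and at 5.68 to 5.69 in the others, a small gap in a group of very close values. Abcc1 was at 6.51 in Sox2-negative pool 3 and at 6.70 to 6.73 in the others. Abca6 was at 5.53 in Sox2-positive pool 4 against 5.94 to 5.99, and at 5.88 in Sox2-negative pool 1 against 5.56 to 5.60.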

How the results depend on the processing

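The alternatives were the pool number as a replicate block, quantile normalization, the mean of probe sets, dim genes left out, a variance trend, array weights, probe sets with several symbols added, and leaving out each array. The count of 5 higher ABC genes was 2 to 5 when 1 array was left out, lowest when positive pool 2 was removed and 3 when positive pool 4, negative pool 1 or negative pool 4 was removed, with fewer samples in each fit. The count over all genes fell as well, from 1321 to 995 without positive pool 2 and to 1023 without negative pool 1. In the other alternatives it was 5 or 6. The count of 2 lower genes was 2 or 3 throughout. The median difference was -0.01 to 0.06 for drug efflux and 0.05 to 0.15 for lipid transport when 1 array was left out. With dim genes left out, 26 ABC genes were tested, and the lipid transport median was 0.28 over the 10 left. With the replicate block 6 ABC genes were higher and 2 lower, while over all genes the counts went from 1321 to 1572 higher and from 558 to 768 lower, and beside Abcd3 and Kcnj8 it changed no call among the genes named with alternatives. The calls of Abcg1, Abca1, Abcd2 and Abcc8 held in all 15 alternatives. Over 15 ABC genes given in every array, 208 of 221 refits kept the side of the threshold, 12 lost and 1 gained a call; Abcd3, not in that tally, gained one in 6 of 15, and 0 called genes turned direction. Quantile normalization moved the median of all genes from -0.03 to -0.01.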
